A study of Rattus norvegicus with 20 samples.

Results

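The 3 microRNAs described here are rno-miR-199a-3p, rno-miR-199a-5p and rno-miR-214-3p, which were found on the arrays by those exact names, 3 of the 677 rat miRNAs that the array measures. MicroRNAs are short RNAs that, loaded into an Argonaute protein, pair with messenger RNAs mainly through the seed near their 5′ end and lower their translation or stability. Both strands of the miR-199a hairpin and the 3′ strand of the miR-214 hairpin come from a noncoding transcript, Dnm3os, that runs antisense to an intron of Dnm3, the gene of a dynamin. In most organs these miRNAs are known from mesenchymal cells such as fibroblasts, chondrocytes and smooth muscle, and they are not classed as germ cell miRNAs.

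The samples were germ cells of male Sprague-Dawley rats in 4 groups of 5 arrays each: pachytene spermatocytes (meiotic cells) and round spermatids (haploid cells), each from rats given saline or cyclophosphamide, an alkylating anticancer drug. Cyclophosphamide was given by gavage at 6 mg/kg, 6 days a week over 4 weeks. Cell types had been enriched by STA-PUT sedimentation at unit gravity, which sorts cells by size, so other testis cells of like size can be present, and 100 ng of total RNA was labelled with Cy3 for each array. Each array is named here by its rat number. 2 cyclophosphamide pachytene arrays both carry number 16 with different label years and were counted as separate samples, and nothing in the labels says whether cells of several rats were pooled. The animals carry no engineered allele in the labels, and their age is not given in the sources used here.

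The arrays lay on 3 slides: slides 1 and 2 held all 4 groups, and slide 3 held only round spermatids, 3 from saline and 1 from cyclophosphamide rats. Between 181 and 281 miRNAs were detected per array, and 217 passed the detection filter and were tested. Values are log2 signals after scaling each array to its 75th percentile over spots well above background. Signals under a floor of 12.2 scaled units (3.61 on the log2 scale) were set to that floor. The precision is limited by the number of arrays. Several miRNAs of the miR-34 and miR-449 families, which are abundant in meiotic and postmeiotic germ cells, had high signal in the labelled cells. For example, rno-miR-34c-5p lay between 11.99 and 13.40 over the 20 arrays. Of the same families, rno-miR-34c-3p had lower group means, from 6.31 to 7.34, and rno-miR-449c-5p was detected on 2 of 20 arrays. The germ cell list has no marker that would separate the stages.

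The mature sequences are shown because each member is read by its own probe and acts through its own seed. Capitals mark the seed, bases 2 to 8 (RefSeq, GRCr8).
rno-miR-199a-5p: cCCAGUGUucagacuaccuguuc
rno-miR-199a-3p: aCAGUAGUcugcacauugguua
rno-miR-214-3p: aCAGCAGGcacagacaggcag

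In GRCr8, rno-miR-199a-5p lies at chr13:77116255-77116277 and rno-miR-199a-3p at chr13:77116294-77116315, both in the noncoding gene Mir199a2 on the plus strand. The third member, rno-miR-214-3p, lies at chr13:77121713-77121733 in Mir214, also on the plus strand, and 5310 bases separate the 2 hairpin genes. All of these positions fall inside the span of Dnm3 (chr13:76892381-77371346), whose own promoter is on the minus strand. The seeds of rno-miR-199a-3p and rno-miR-214-3p are identical at 5 of 7 positions but are not the same. Among the 607 miRNAs of the array with a RefSeq sequence of the same name, no other miRNA has the seed of any member. The Mir214 hairpin is shown with the rno-miR-214-3p strand in capitals. Another miRNA of the locus, rno-miR-3120, is read from the opposite strand of other bases of this hairpin, outside the capitals.
Mir214 hairpin: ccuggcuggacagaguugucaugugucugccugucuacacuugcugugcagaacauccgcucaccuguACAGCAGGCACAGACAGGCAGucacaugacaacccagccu

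Another stretch of that hairpin, listed as rno-miR-214-5p (chr13:77121656-77121672), was detected on 0 of 20 arrays. The same held for rno-miR-3120 (chr13:77121672-77121692, minus strand), whose reverse complement lies within the printed hairpin. The stretch listed as rno-miR-214-5p lies near the hairpin's start, mostly before the bases that can pair with the capitals. Its result therefore does not show whether the strand opposite the capitals was present. The array's probes for the members read mature strands, so a second genomic copy of the same mature sequence would not be told apart.

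All 3 members were detected on 20 of 20 arrays, and all 3 had higher signal in round spermatids than in pachytene spermatocytes, in saline and in cyclophosphamide rats alike. With the brighter probe of each member, the rise was about 3-fold or more for both miR-199a strands and under 2-fold for rno-miR-214-3p. With the mean of both probes, rno-miR-199a-5p rose by 0.97 in saline and 1.04 in cyclophosphamide rats (log2) and passed. When arrays were scaled to labelling spike-ins, no member passed in saline rats, and the difference of rno-miR-214-3p changed sign. With the spots' own background corrected by normexp, no member passed in cyclophosphamide rats. In either cell type no difference between cyclophosphamide and saline passed the test for any member. Over the round spermatid arrays the miR-199a strands rose and fell nearly together, and 2 arrays, cyclophosphamide rat 26 and saline rat 17, carried low signal of all 3.

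In saline pachytene spermatocytes, the strand rno-miR-199a-3p, which in many tissues is the more abundant product of the hairpin, had log2 signals of 4.59 in rat 13, 4.51 in rat 16, 4.59 in rat 25, 4.78 in rat 26 and 4.84 in rat 28. In saline round spermatids the signals were 6.67 in rat 15, 6.38 in rat 16, 5.64 in rat 17, 7.21 in rat 25 and 6.59 in rat 28. The groups did not overlap: the lowest saline spermatid array, rat 17, lay above every saline pachytene array. On the linear scale, scaled signals ran from 23.0 to 28.8 units in saline pachytene arrays and from 50.2 to 148 units in saline spermatid arrays.

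After cyclophosphamide, pachytene signals of rno-miR-199a-3p were 4.23 in rat 7, 4.53 in rat 15, 4.78 and 4.50 in the arrays labelled rat 16, and 4.75 in rat 29. Spermatid signals were 6.83 in rat 14, 6.47 in rat 15, 6.59 in rat 16, 6.85 in rat 25 and 5.27 in rat 26. Again the cell types did not overlap, with rat 26 standing 1.21 below the next array of its group.

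**Figure D1:**
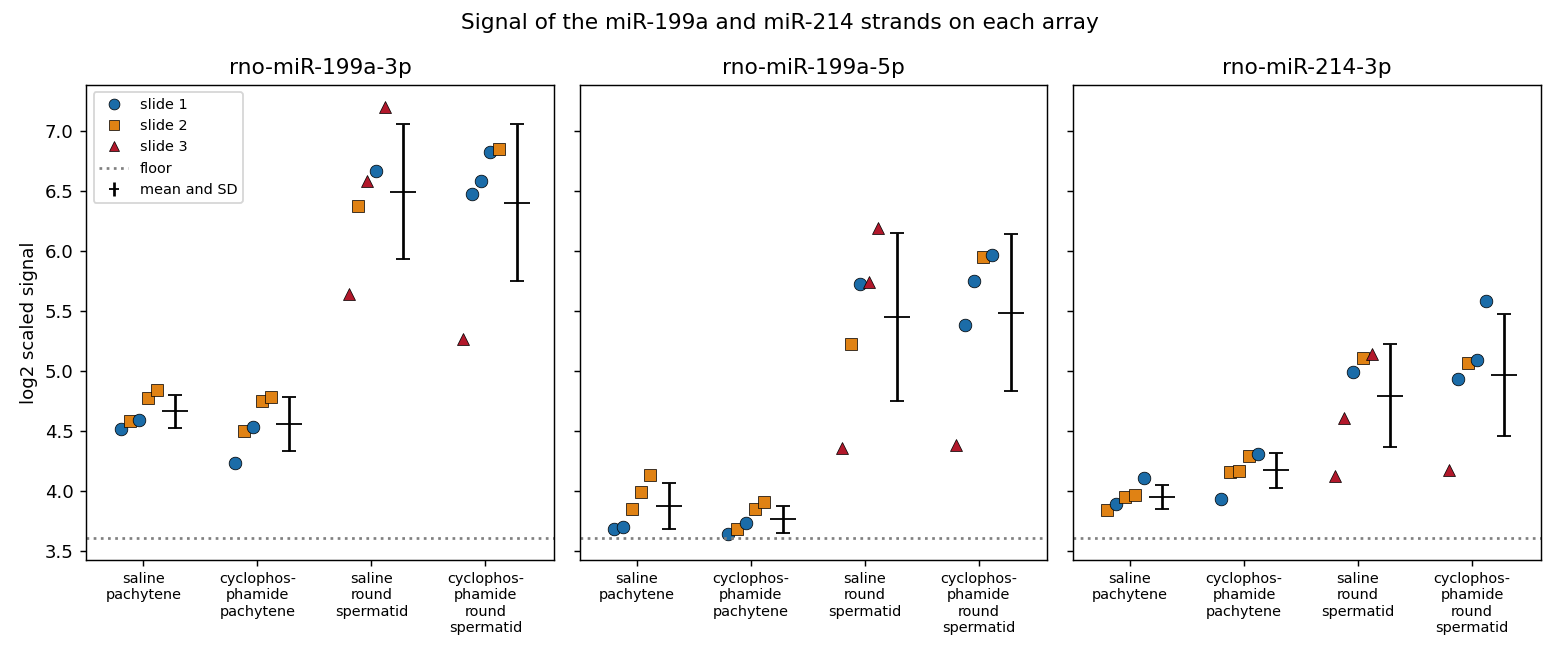
Log2 scaled signal of each member on each of the 20 arrays, by group, with slides marked by colour and shape, and group means with SD beside the points (n = 5). Round spermatid arrays lie above the pachytene arrays for both miR-199a strands, while the lowest spermatid arrays of rno-miR-214-3p lie within the pachytene range, and slide 3 holds the low arrays saline 17 and cyclophosphamide 26.

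The opposite strand, rno-miR-199a-5p, was close to the floor in pachytene spermatocytes. Its saline pachytene signals were 3.70 in rat 13, 3.68 in rat 16, 3.85 in rat 25, 3.99 in rat 26 and 4.13 in rat 28. Between 1 and 10 of its 10 spots per saline pachytene array were well above background, so its low values there are partly set by the floor. Saline spermatid signals were 5.73 in rat 15, 5.23 in rat 16, 4.36 in rat 17, 6.19 in rat 25 and 5.74 in rat 28, and all 10 spots were well above background on each of these arrays.

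In cyclophosphamide pachytene arrays rno-miR-199a-5p gave 3.64 in rat 7, 3.73 in rat 15, 3.90 and 3.68 in the arrays labelled rat 16, and 3.85 in rat 29. In cyclophosphamide spermatid arrays it gave 5.97 in rat 14, 5.39 in rat 15, 5.75 in rat 16, 5.95 in rat 25 and 4.39 in rat 26. The order of arrays followed that of rno-miR-199a-3p closely, and the cell types did not overlap in either treatment.

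The neighbouring member, rno-miR-214-3p, gave saline pachytene signals of 3.89 in rat 13, 4.11 in rat 16, 3.95 in rat 25, 3.84 in rat 26 and 3.97 in rat 28. Its saline spermatid signals were 4.99 in rat 15, 5.11 in rat 16, 4.12 in rat 17, 5.14 in rat 25 and 4.61 in rat 28. Rat 17 was only 0.010 above the highest saline pachytene array. After cyclophosphamide it gave 3.94 in rat 7, 4.30 in rat 15, 4.16 and 4.17 in the arrays labelled rat 16, and 4.29 in rat 29 for pachytene spermatocytes. Spermatid signals after cyclophosphamide were 5.59 in rat 14, 4.93 in rat 15, 5.09 in rat 16, 5.06 in rat 25 and 4.18 in rat 26. Here the cell types overlapped, since rat 26 lay below 2 of the 5 cyclophosphamide pachytene arrays.

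The comparison of cell types asks how the members differ between meiotic and haploid cells. In saline rats, rno-miR-199a-3p averaged 6.50 ± 0.57 in round spermatids and 4.66 ± 0.14 in pachytene spermatocytes (SD, n = 5 each). Its log2 difference was 1.84 ± 0.27 (SE, limma over all 217 tested miRNAs, adjusted p = 8.75e-06), a 3.57-fold rise with a 95% confidence interval of 2.42 to 5.26. This difference was larger than the SD of either group, and the same was true of both other members. For rno-miR-199a-5p the means were 5.45 ± 0.70 and 3.87 ± 0.19 (SD, n = 5 each), a log2 difference of 1.58 ± 0.29 and a 2.99-fold rise (1.96 to 4.56, limma adjusted p = 0.000123). The means of rno-miR-214-3p were 4.79 ± 0.43 and 3.95 ± 0.10 (SD, n = 5 each), a log2 difference of 0.84 ± 0.21 and a 1.80-fold rise (1.33 to 2.42, limma adjusted p = 0.00214).

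The cyclophosphamide rats gave much the same picture. In them rno-miR-199a-3p averaged 6.40 ± 0.66 against 4.56 ± 0.22 (SD, n = 5 each) and rose 3.59-fold (2.43 to 5.30, limma adjusted p = 8.21e-06). Its hairpin partner rno-miR-199a-5p averaged 5.49 ± 0.66 against 3.76 ± 0.11 (SD, n = 5 each) and rose 3.31-fold (2.17 to 5.05, limma adjusted p = 4.71e-05). Finally rno-miR-214-3p averaged 4.97 ± 0.51 against 4.17 ± 0.15 (SD, n = 5 each) and rose 1.74-fold (1.29 to 2.35, limma adjusted p = 0.00321).

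All 3 members thus passed in both treatments, where calls were common: 48.4% of the 217 tested miRNAs passed in saline rats and 53.9% in cyclophosphamide rats, with 26.3% and 30.9% passing as higher in round spermatids. The median log2 difference of all tested miRNAs was 0.022 in saline and 0.063 in cyclophosphamide rats, and the members' medians were 1.58 and 1.73. Ordered by log2 difference among the 217 miRNAs, rno-miR-199a-3p was number 5 in both treatments, rno-miR-199a-5p number 8 in saline and 7 in cyclophosphamide rats, and rno-miR-214-3p number 26 in both. The saline and cyclophosphamide contrasts use different arrays.

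**Figure D2:**
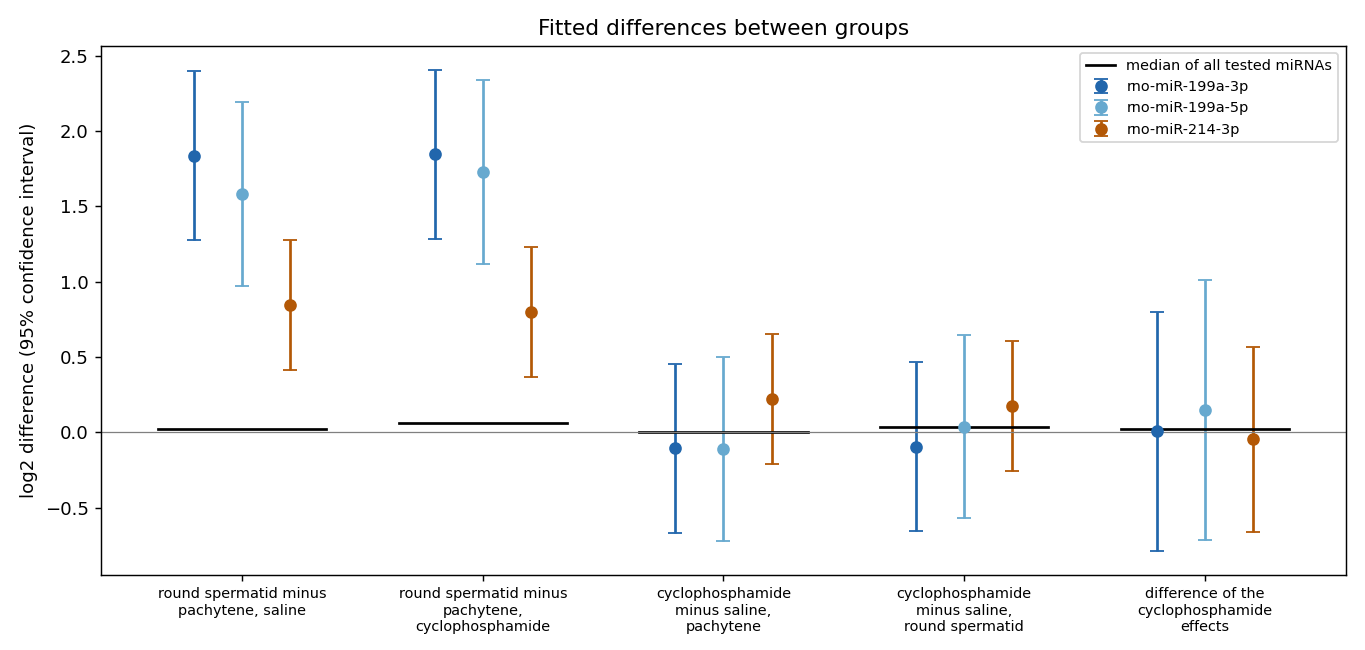
Fitted log2 difference of each member in each of the 5 comparisons, with 95% confidence intervals, and the median of the 217 tested miRNAs as a black line. The intervals of the cell type comparisons lie above 0 for all 3 members at the scaling used here (saline rno-miR-214-3p falls below 0 under spike-in scaling), and those of the cyclophosphamide comparisons all include 0.

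Slides were not balanced between cell types, so the rise was also read within slides. In saline rats the log2 difference of rno-miR-199a-3p was 2.12 within slide 1 and 1.64 within slide 2, and with slide as a block it was 2.21. For rno-miR-199a-5p these values were 2.04, 1.24 and 1.94, and for rno-miR-214-3p 0.997, 1.19 and 1.23. In cyclophosphamide rats the within-slide values were 2.25 and 2.18 for rno-miR-199a-3p, 2.02 and 2.14 for rno-miR-199a-5p, and 1.08 and 0.86 for rno-miR-214-3p. The within-slide values are descriptions: saline spermatids have 1 array on slide 1 and 1 on slide 2, and cyclophosphamide spermatids 3 and 1, so the spread behind a test there comes mostly from other groups. With slide as a block over all arrays, each saline value passed the limma test at an adjusted p below 0.05. Without slide 3 the saline rises were 1.86, 1.61 and 1.1 for rno-miR-199a-3p, rno-miR-199a-5p and rno-miR-214-3p.

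The size of the rise depended on what the arrays were scaled to. Scaled to the labelling spike-ins, saline rno-miR-199a-3p differed by 0.62, rno-miR-199a-5p by 0.48 and rno-miR-214-3p by -0.25, and none of these passed. Under that scaling the median of all tested miRNAs in saline rats was -1.01, so the members stood 1.63, 1.49 and 0.76 above it, against 1.81, 1.56 and 0.82 at the main scaling. In cyclophosphamide rats, where that median was -0.49, both miR-199a strands passed at 1.13 and 1.08, and rno-miR-214-3p did not at 0.14. Every array of slide 3, which held only round spermatids, had a higher labelling spike-in signal than any array of slides 1 and 2. On the log10 scale these were 3.17 to 3.31 against at most 3.16. The part of slide 3 in the spike-in scaled values was not tested. With no scaling at all, both miR-199a strands passed in either treatment, whereas rno-miR-214-3p reached only 0.37 in saline and 0.41 in cyclophosphamide rats and did not pass. The members kept their order, with rno-miR-199a-3p first and rno-miR-214-3p last, under each of these scalings. In cyclophosphamide rats rno-miR-199a-5p came above rno-miR-199a-3p with the total gene signal (2.04 against 1.84), the lower floor (1.849 against 1.844) and the authors' deposited value table (2.31 against 1.78).

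**Figure D3:**
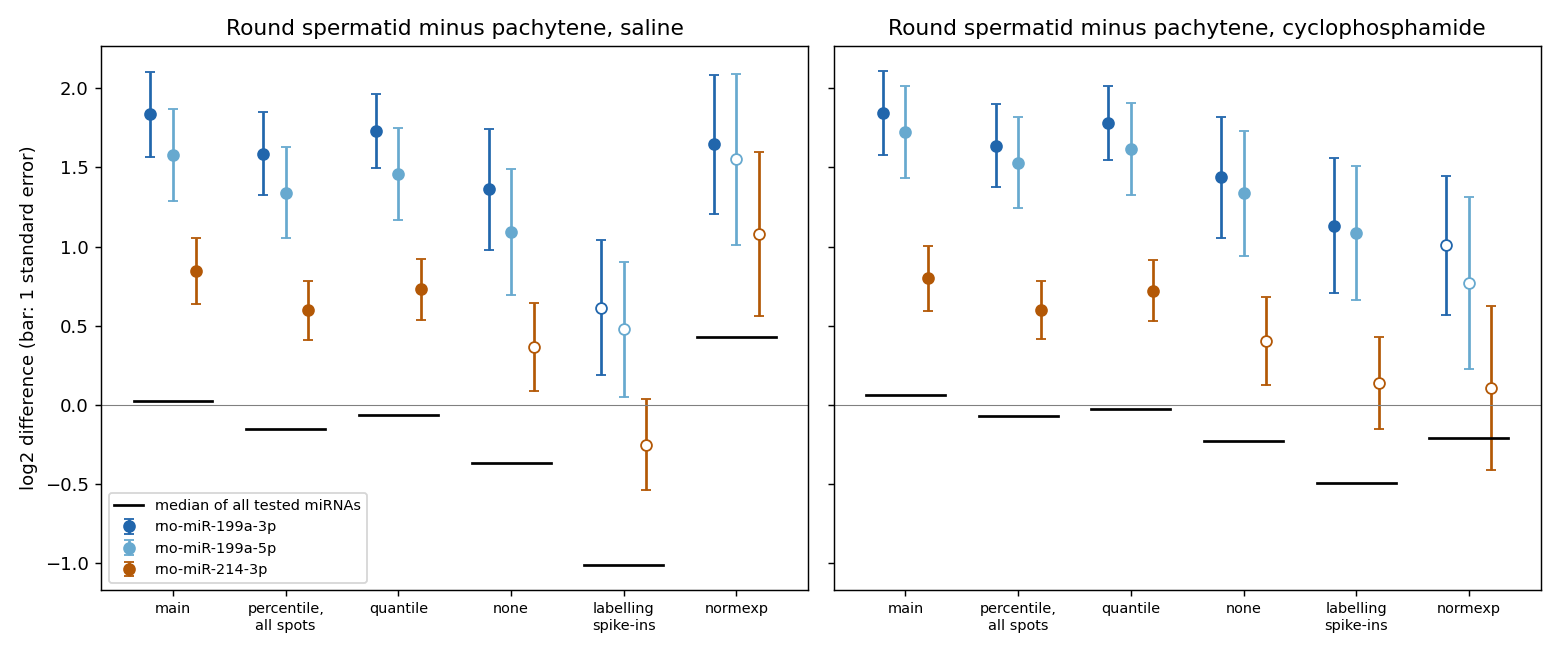
Log2 difference between round spermatids and pachytene spermatocytes under 5 scalings and under normexp background correction, with 1 standard error, for saline (left) and cyclophosphamide rats (right). Filled points passed at an adjusted p below 0.05, and the black lines give the median of the 217 tested miRNAs, which moved with the scaling; saline rno-miR-214-3p is below 0 under labelling spike-ins.

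Normexp correction of the spots' own background changed the calls more. In saline rats rno-miR-199a-3p passed at 1.65, while rno-miR-199a-5p at 1.55 and rno-miR-214-3p at 1.08 did not. In cyclophosphamide rats the values were 1.01, 0.77 and 0.11 for rno-miR-199a-3p, rno-miR-199a-5p and rno-miR-214-3p, and none passed. Standard errors were larger under normexp, for example 0.52 in place of 0.21 for rno-miR-214-3p.

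Each member is read by 2 probes of 10 spots. The dimmer probe of rno-miR-199a-3p gave nearly the same rise, 1.76 in saline and 1.77 in cyclophosphamide rats, and that of rno-miR-214-3p gave 0.69 and 0.70, all passing. Pachytene values of this rno-miR-214-3p probe ran from 3.61 to 3.66 in saline and from 3.64 to 3.82 in cyclophosphamide rats. These lie at or near the floor, which partly sets the size of the probe's rise. The dimmer probe of rno-miR-199a-5p sat at the floor on every saline pachytene array and gave 0.36 and 0.35, which did not pass. In the authors' deposited value table, rno-miR-199a-3p rose by 1.71 and rno-miR-199a-5p by 1.69 in saline rats, and by 1.78 and 2.31 in cyclophosphamide rats, all passing. No row of that table was matched to rno-miR-214-3p, so it is not used here for that member.

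The treatment comparison asks whether chronic cyclophosphamide changed these miRNAs within a cell type. In pachytene spermatocytes the cyclophosphamide minus saline log2 differences were -0.10 ± 0.27 for rno-miR-199a-3p, -0.11 ± 0.29 for rno-miR-199a-5p and 0.22 ± 0.21 for rno-miR-214-3p (SE). In round spermatids they were -0.10 ± 0.27, 0.039 ± 0.29 and 0.18 ± 0.21 (SE). None passed, with limma adjusted p-values between 0.854 and 1, and the arrays of the 2 treatments overlapped for every member in both cell types. The same limma fit called 0 of 217 miRNAs (0%) in either treatment comparison, and 1 in pachytene spermatocytes and 5 in round spermatids had an unadjusted p below 0.05.

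The intervals state how large a treatment difference these arrays could still hold, if the spread of a miRNA is the same in all 4 groups. Fits of only the 2 groups compared gave SEs of 0.36, 0.40 and 0.28 in round spermatids for rno-miR-199a-3p, rno-miR-199a-5p and rno-miR-214-3p. In pachytene spermatocytes they gave 0.11, 0.095 and 0.077. The shared spread thus makes the spermatid intervals too narrow and the pachytene intervals too wide. In round spermatids the 95% confidence interval of the cyclophosphamide to saline ratio ran from 0.635 to 1.38 for rno-miR-199a-3p, from 0.673 to 1.57 for rno-miR-199a-5p and from 0.837 to 1.52 for rno-miR-214-3p. In pachytene spermatocytes it ran from 0.631 to 1.37, from 0.608 to 1.42 and from 0.863 to 1.57. The difference between the treatment effects of the cell types was 0.0086 ± 0.38, 0.15 ± 0.41 and -0.045 ± 0.29 on the log2 scale for rno-miR-199a-3p, rno-miR-199a-5p and rno-miR-214-3p (SE), and the same limma fit called 0% of all miRNAs, with 1 of 217 at an unadjusted p below 0.05.

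The spermatid treatment values moved with 2 low arrays, in opposite directions. Without cyclophosphamide rat 26 they were 0.19, 0.31 and 0.37 for rno-miR-199a-3p, rno-miR-199a-5p and rno-miR-214-3p, still not passing. Leaving out saline rat 17 in turn gave -0.31, -0.23 and 0.0071. Within slide 3, where rat 26 is the only cyclophosphamide array, they were -1.21, -1.04 and -0.45, and within slide 1 they were -0.036, -0.027 and 0.21.

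Ordered by mean log2 signal, each miR-199a strand had its 2 pachytene groups low and its 2 spermatid groups high, and neighbours within a cell type differed by less than their SD. The same order of cell types held for rno-miR-214-3p, whose 2 pachytene groups differed by 0.22, more than either SD, without passing the test. The spread between arrays was wider in spermatids: the SD of values around the treatment mean was 0.58 in spermatids and 0.18 in pachytene arrays for rno-miR-199a-3p. It was 0.64 and 0.15 for rno-miR-199a-5p, whose pachytene values are held up by the floor, and 0.45 and 0.12 for rno-miR-214-3p.

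The 3 members need not rise by the same factor, and each array gives its own balance between them. Levels of different probes are not comparable, so only the change of a balance between groups is read. The balance of rno-miR-214-3p minus rno-miR-199a-3p ran from -0.94 to -0.40 in saline pachytene arrays and from -2.06 to -1.27 in saline spermatid arrays, with no overlap. Its mean was 0.99 lower in spermatids (exact two-sided permutation test over 252 splits, n = 5 each, p = 0.00794, adjusted p = 0.0317 over 8 comparisons). In cyclophosphamide rats it ran from -0.62 to -0.23 in pachytene and from -1.79 to -1.09 in spermatid arrays and was 1.04 lower (exact permutation p = 0.00794, adjusted p = 0.0317), where 0.00794 is the smallest p that 5 against 5 arrays allow. So the neighbour of the miR-199a hairpin rose by less than its strand in both treatments, though under normexp neither difference passed, at -0.57 and -0.90. Between cyclophosphamide and saline the mean balance differed by 0.32 in pachytene spermatocytes and by 0.27 in round spermatids, and neither difference passed (exact permutation adjusted p = 0.0635 and 0.218, n = 5 each).

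The balance of the 2 miR-199a strands moved little. The value of rno-miR-199a-3p minus rno-miR-199a-5p was 1.05 ± 0.17 in saline spermatids and 0.79 ± 0.073 in saline pachytene spermatocytes (SD, n = 5 each). The difference of 0.26 passed (exact permutation p = 0.0159, adjusted p = 0.0423), but with the floor set at 6.09 units it was 0.18 and did not pass (exact permutation adjusted p = 0.206). It also lost the call in turn without saline pachytene rats 16, 25, 26 or 28 or saline spermatid rat 17, with adjusted p up to 0.106. In cyclophosphamide rats the values were 0.91 ± 0.10 and 0.80 ± 0.12 (SD, n = 5 each; exact permutation adjusted p = 0.178). Cyclophosphamide and saline differed by 0.0040 in pachytene spermatocytes and by -0.13 in round spermatids (exact permutation adjusted p = 0.960 and 0.218, n = 5 each).

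The arrays of round spermatids were then compared with each other, after taking each treatment's mean from its 5 arrays. Over the 10 arrays, rno-miR-199a-3p and rno-miR-199a-5p had Pearson r = 0.981 (100000-resample permutation p = 1e-05, the smallest these permutations can give, adjusted over 3 pairs 3e-05) and Spearman rho = 0.939 (permutation p = 0.00021, adjusted p = 0.00063). Against rno-miR-214-3p, rno-miR-199a-3p had r = 0.878 (permutation p = 0.00304, adjusted p = 0.00456) and rho = 0.685 (permutation p = 0.0346, adjusted p = 0.038). The pair of rno-miR-199a-5p and rno-miR-214-3p had r = 0.849 (permutation p and adjusted p = 0.00533) and rho = 0.673 (permutation p and adjusted p = 0.038).

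**Figure D4:**
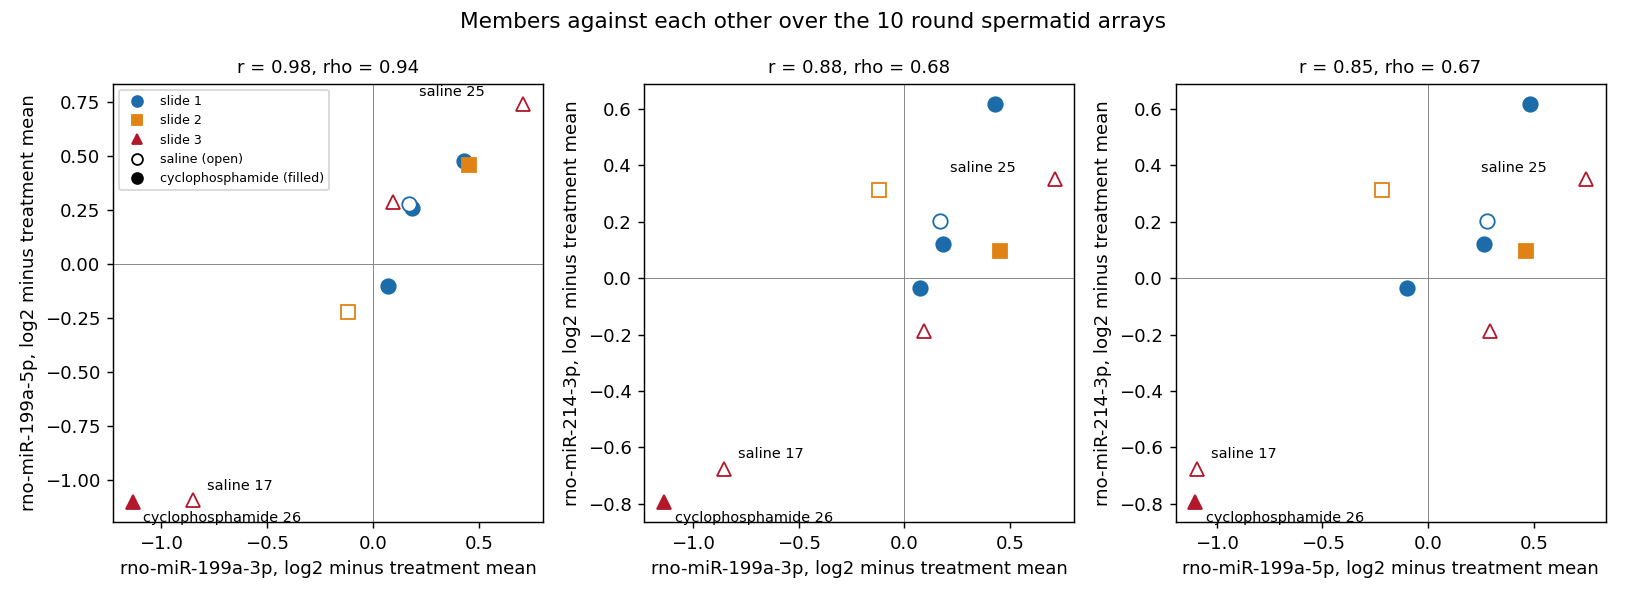
Each pair of members over the 10 round spermatid arrays, as log2 signal minus the treatment mean on both axes, with slides by colour and shape, saline open and cyclophosphamide filled. Cyclophosphamide rat 26 and saline rat 17 lie far below the other 8 arrays in each panel, and the panels with rno-miR-214-3p show little order among those 8.

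The arrays farthest from the median were cyclophosphamide rat 26 and saline rat 17 in each pair. Without them the strands of miR-199a still had r = 0.940 over 8 arrays (permutation p = 0.00019). The relation of rno-miR-214-3p to rno-miR-199a-3p then had r = 0.409 (permutation p = 0.316). That to rno-miR-199a-5p had r = 0.306 (permutation p = 0.462), so both values of r rested on those 2 arrays. Both arrays were on slide 3. With slide effects removed as well as treatment means, r was 0.979, 0.858 and 0.846 for the 3 pairs over 10 arrays (permutation adjusted p = 3e-05, 0.00131 and 0.00131). Spearman rho was then 0.964, 0.867 and 0.879 (permutation adjusted p = 0.00021, 0.00251 and 0.00246). Those 2 arrays were kept in these values. Removing slide effects leaves fewer independent values than the 10 that were permuted, so these p-values may be too small. Without slide 3 the pairs with rno-miR-214-3p had r = 0.440 and 0.436. Single slides hold 2 to 4 spermatid arrays, too few for a value of their own.

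In pachytene spermatocytes the strands of miR-199a also moved together, with r = 0.843 and rho = 0.818 over 10 arrays (permutation adjusted p = 0.00786 and 0.0188). Without the 2 farthest arrays r was 0.918, and with slide effects removed it was 0.671 (permutation adjusted p = 0.104). There rno-miR-214-3p had r = 0.346 with rno-miR-199a-3p and 0.0427 with rno-miR-199a-5p (permutation adjusted p = 0.491 and 0.908). The members' pachytene range is narrow and near the floor, and the difference in r between cell types was not tested.

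Array-wide measures were set against the members over the same 10 spermatid arrays, 9 relations in all. Pearson r lay between -0.467 and 0.132 for the array's 75th percentile signal, the number of detected miRNAs and the labelling spike-in signal, with permutation adjusted p from 0.675 to 0.775. The Spearman rho of these relations lay between -0.479 and 0.127 (permutation adjusted p from 0.793 to 0.865). Leaving out the 2 arrays farthest on the measure gave r between -0.675, for rno-miR-214-3p and the number of detected miRNAs, and 0.300. Saline rat 17 had the highest labelling spike-in signal of the 20 arrays (3.31 on the log10 scale), and cyclophosphamide rat 26 had 3.17 within a spermatid range of 2.92 to 3.31. The part of these measures in the low arrays was not tested.

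Ranked by Pearson r over these arrays among 213 miRNAs with a value, rno-miR-199a-5p was the miRNA most like rno-miR-199a-3p, and the reverse also held. From rno-miR-214-3p, rno-miR-199a-3p was number 3 and rno-miR-199a-5p number 6. From rno-miR-199a-3p and rno-miR-199a-5p, rno-miR-214-3p was number 8 and number 10. These ranks describe 10 arrays that share a scaling and the 2 low arrays.

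The 5 miRNAs outside the locus most like the mean of the members were rno-miR-152-3p (r = 0.944), rno-miR-26a-5p (r = 0.918), rno-miR-125b-5p (r = 0.912), rno-miR-450a-5p (r = 0.908) and rno-miR-195-5p (r = 0.896), among 211 with a value, whose median r was 0.010. They were chosen for this likeness, so it has no test. They were not alike between cell types. In saline rats the log2 difference of spermatids from pachytene spermatocytes was 1.52 for rno-miR-195-5p and 0.76 for rno-miR-26a-5p, both passing, and -0.10 for rno-miR-125b-5p and 0.33 for rno-miR-450a-5p, neither passing. For rno-miR-152-3p it was 1.25 and passed, with its saline pachytene arrays all at the floor. In cyclophosphamide rats these differences were 1.61 for rno-miR-195-5p, 0.71 for rno-miR-26a-5p and 1.17 for rno-miR-152-3p, all passing, and -0.083 for rno-miR-125b-5p and 0.18 for rno-miR-450a-5p, neither passing.

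**Figure D5:**
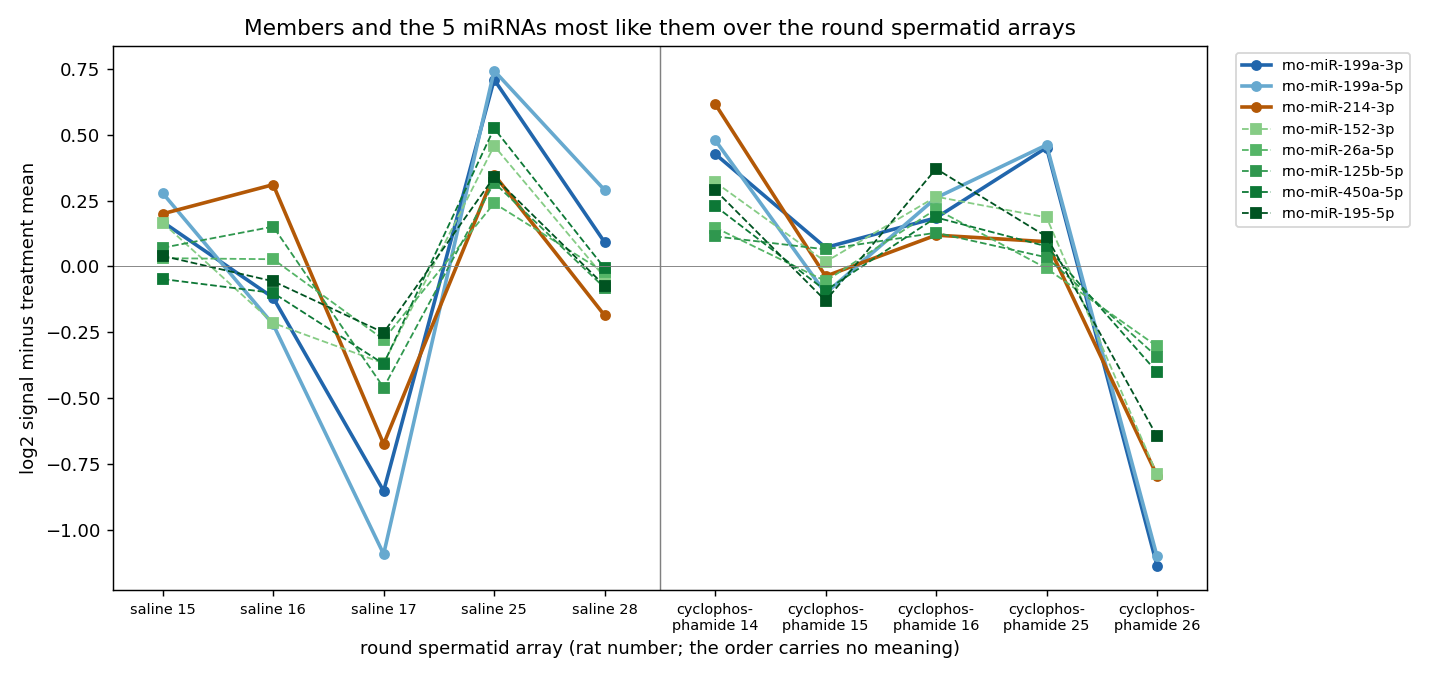
Log2 signal minus the treatment mean over the 10 round spermatid arrays for the members (solid) and the 5 miRNAs most like their mean (dashed, chosen for that likeness). All 8 lines are low at saline rat 17 and cyclophosphamide rat 26 and high at saline rat 25, and both miR-199a strands fall the farthest.

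Other miRNAs known from mesenchymal, smooth muscle and peritubular cells were set beside the members. Of 10 listed, 9 were tested. In saline and in cyclophosphamide rats, 6 were called higher in spermatids, 1 lower and 2 were not called. The median log2 differences were 0.49 and 0.50. Of all 217 tested miRNAs, 26.3% and 30.9% were called higher in round spermatids. The 6 differed between treatments: rno-miR-10a-5p was called only in saline and rno-miR-22-3p only in cyclophosphamide rats. Every pachytene array of rno-miR-143-5p, called in both, was at the floor, which sets the size of its rise. Each of these is named after its values were seen. The smooth muscle pair rno-miR-143-3p and rno-miR-145-5p rose by 1.81 and 1.88 in saline rats and by 2.005 and 1.76 in cyclophosphamide rats, and rno-miR-10b-5p rose by 1.56 and 1.53 (limma adjusted p at most 0.000125 for each). The 1 that fell, rno-miR-100-5p, at -1.04 and -1.14, is named after its values were seen. The summed scaled signal of the 9 ran from 1705 to 2188 units in saline pachytene arrays and from 3484 to 4768 in saline spermatid arrays. In cyclophosphamide rats it ran from 1627 to 1970 and from 2821 to 4997, again without overlap. In these sums rno-miR-143-3p made up 22.5% to 49.6% of the sum in pachytene and 54.5% to 67.1% in spermatid arrays. These are shares of summed probe signal, not of miRNA amounts, since levels of different probes are not comparable. The sum of the other 8 overlapped between cell types, from 1087 to 1455 units in pachytene and from 1147 to 1814 in spermatid arrays. The part of these miRNAs in the members' rise was not tested, and in bulk samples a difference in the number of cells of a type and one in RNA per cell cannot be told apart.

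Over the spermatid arrays these 9 miRNAs all had r above 0 to the members' mean, with a median of 0.55, from 0.069 for rno-miR-100-5p to 0.94 for rno-miR-152-3p. The strongly rising rno-miR-143-3p and rno-miR-145-5p had only 0.53 and 0.37. In the array of cyclophosphamide rat 26 rno-miR-143-3p had the lowest signal of the 10 spermatid arrays, 10.71 in a range up to 11.68. In that of saline rat 17 it had 11.33, within the range of the other saline arrays.

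Lists for other cells moved in different ways. Their small counts are to be read beside all 217 tested miRNAs. Of these, 57 were called higher and 48 lower in spermatids of saline rats, and 67 and 50 in cyclophosphamide rats. Summed levels of a list are sums of probe signal, not of miRNA amounts. Of 6 tested fibrosis related miRNAs, 3 were higher and 1 lower in spermatids of saline rats and 4 higher and 1 lower in cyclophosphamide rats, led by rno-miR-133b-3p at 1.57 and 1.48. That miRNA was also the 1 tested of 5 listed for striated muscle, and its summed level there was near the floor in pachytene arrays, from 12.2 to 14.8 units, against 25.2 to 51.0 in spermatids. Of the others on that list, rno-miR-1-3p, rno-miR-133a-3p and rno-miR-206-3p were each detected on 2 of 20 arrays, and rno-miR-499-5p, which did not pass the filter for testing, on 15 of 20 with a log2 signal of at most 4.10. The endothelial strand rno-miR-126a-3p fell by 0.83 in cyclophosphamide rats and did not pass in saline rats at -0.73, with rno-miR-126a-5p not called in either, and the summed level ran from 76.8 to 285 units in pachytene and from 55.8 to 119 in spermatid arrays.

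Among blood cell miRNAs, 3 of 7 listed were tested. The myeloid miRNA rno-miR-223-3p rose by 2.15 in saline and 1.95 in cyclophosphamide rats, rno-miR-142-3p rose by 0.76 in cyclophosphamide rats and did not pass in saline rats at 0.53, and rno-miR-150-5p was not called. The red cell miRNAs rno-miR-144-3p and rno-miR-451-5p were detected on 0 and 1 of 20 arrays. The list's summed level ran from 63.2 to 109 units in pachytene and from 134 to 194 in spermatid arrays, and its part in the members' rise was not tested.

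Of the Sertoli and gonadal somatic list, 3 of 4 were tested, and 1 was higher and 1 lower in each treatment: rno-miR-202-3p fell by 1.77 and 1.55, and rno-miR-132-3p was called higher, with every pachytene array at the floor, so that the floor sets the size of its rise. The list's summed level overlapped between cell types, from 362 to 480 units in pachytene and 248 to 588 in spermatid arrays. Of 4 spermatogonial miRNAs, 3 fell in saline and 2 in cyclophosphamide rats, with rno-miR-221-3p falling by 1.64 and 1.70 to near the floor, while rno-miR-222-3p, also called lower in both, was detected on 1 of 5 spermatid arrays of each treatment, so that the floor sets the size of its fall. Of 5 tested germ cell miRNAs, 1 rose in saline rats and 2 in cyclophosphamide rats, with rno-miR-34b-5p rising by 0.63 and 0.86 and rno-miR-34c-5p by 0.73 in cyclophosphamide rats. No listed miRNA passed in a treatment comparison.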

How the data were processed

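The arrays are 1-colour Agilent miRNA arrays of 20 germ cell samples. Per the submitters' processing notes the scanner images were read by Agilent Feature Extraction (version 11.5.1.1), and, per the file headers, the deposited intensities of the processed signal were already corrected for background. The authors' deposited value table holds log2 values whose scaling and centring are unknown (column medians from -0.12 to 0.40). It correlated with the scanner values at r = 0.997 for rno-miR-199a-3p and 0.966 for rno-miR-199a-5p, and served only as an alternative. Controls and outlier-flagged spots did not enter. Each array was scaled to its 75th percentile over the 2176 spots well above background on all arrays, the floor was set and log2 taken. The brightest of a miRNA's probes was used, and 217 miRNAs passed the detection filter. Group means of all 20 arrays were fitted with limma 3.58.1 in R 4.3.3 (lmFit, eBayes, 16 residual degrees of freedom) with Benjamini-Hochberg adjustment and a threshold of 0.05, and the script was tested on simulated data. Permutation tests used Python 3.11.15 with numpy 2.4.6. Normexp used the spots' median and local background signals. Named miRNAs were the members, the other miRNAs of the locus, at most 4 passing miRNAs of each list by size of difference, and the 5 most like the members' mean; exceptions are marked. The members and lists were chosen with earlier results of these data known. Arrays of different cell types that share a rat number within a treatment had residual correlations from -0.296 to 0.184. These values cannot tell whether such arrays come from the same animal, and the main fit did not pair them.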

Additional observations from a re-analysis of the deposited data

Results flagged for a closer look

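Within its group of 5 arrays, the cyclophosphamide round spermatid array of rat 26 stood apart at the low end for rno-miR-199a-3p, with a log2 signal of 5.27, and its gap to the next array took 0.761 of the group's range, where Dixon's 95% critical value is 0.71. For the balance rno-miR-199a-3p minus rno-miR-199a-5p, the cyclophosphamide spermatid array of rat 15 stood apart at the high end with 1.09 (0.736 of the range). These were 2 of 20 groups of values examined, and chance alone marks about 1 in 20.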

How the results depend on the processing

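The rise of the members in round spermatids kept its direction in all but 1 of 172 alternative fits and its call in 159. Within-slide fits are not counted, since most of their spermatid arms are 1 array. Many of the counted fits are close to the main one, such as those without a single array. Changing the filter or fitting only the 2 groups compared leaves the log2 differences as they were, so their direction could not change. Leaving out single arrays, slide or scan date as a block, array weights, quantile scaling and the filters ended none of these calls. In saline rats, spike-in scaling gave 0.62, 0.48 and -0.25 for rno-miR-199a-3p, rno-miR-199a-5p and rno-miR-214-3p, normexp ended the calls of the last 2 at 1.55 and 1.08, and no scaling that of rno-miR-214-3p at 0.37. In cyclophosphamide rats, normexp gave 1.01, 0.77 and 0.11, and spike-ins and no scaling ended the call of rno-miR-214-3p at 0.14 and 0.41. The dimmer probe of rno-miR-199a-5p, mostly at the floor, gave 0.36 and 0.35. The cause of the normexp and spike-in changes was not tested. Signal over background limits the pachytene values of rno-miR-199a-5p most, since some of its spots there lie at the floor.

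The cyclophosphamide minus saline values of the members lay near 0, called no member under any alternative and often changed sign. In pachytene spermatocytes the sign changed under normexp for rno-miR-199a-3p (0.48) and rno-miR-199a-5p (0.57), for the latter's dimmer probe (0.00070), and under spike-ins for rno-miR-214-3p (-0.10). In round spermatids it changed for rno-miR-199a-3p under spike-ins (0.075), within slide 2 (0.48), without slide 3 (0.16) and with array weights (0.15), and between -0.31 and 0.19 when single arrays were left out. For rno-miR-199a-5p it changed with the dimmer probe (-0.010), no scaling (-0.057), normexp (-0.20), slide (-0.18) or scan date (-0.19) as a block, within slides 1 (-0.027) and 3 (-1.04), and from -0.23 to 0.31 without single arrays. For rno-miR-214-3p it changed under normexp (-0.20), slide (-0.090) or scan date (-0.085) as a block, and within slides 2 (-0.041) and 3 (-0.45). Slide 2 held 1 spermatid array of each treatment, so its spermatid values are descriptions, and the spread in that fit came from the pachytene arrays.

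The difference between the treatment effects changed sign as follows. For rno-miR-199a-3p it was -0.64 under normexp, -0.21 and -0.23 with slide or scan date as a block, and -0.20 to 0.29 without single arrays. For rno-miR-199a-5p it was -0.011 with the dimmer probe, -0.78 under normexp, -0.073 and -0.086 with those blocks, -0.022 within slide 1, and -0.13 to 0.42 without single arrays. For rno-miR-214-3p it was 0.012 with the dimmer probe, 0.00016 with the percentile over all spots, 0.039 unscaled, 0.39 under spike-ins, 0.087 within slide 1, 0.19 with array weights, and -0.21 to 0.15 without single arrays.

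The labels do not say whether a rat number shared by cell types is the same animal, so pairing was tried only as an alternative. With rat number within treatment as a replicate block, saline rno-miR-199a-3p rose by 1.85, and the treatment effects of that strand differed by -0.0041. The replicate block changed no call of a member and left 108 and 116 of 217 miRNAs called between cell types.

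The correlation of rno-miR-199a-5p with rno-miR-214-3p was 0.60 with the dimmer probes and 0.44 without slide 3, and that of rno-miR-199a-3p with rno-miR-214-3p 0.44 without slide 3. None of these 3 passed. Leaving out single arrays kept all 3 pairs past the threshold.

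The balance of the miR-199a strands in saline rats lost its call with total gene signal (0.090), normexp (0.095), the lower floor (0.18) and the value table (0.014), moved to 0.076 within slide 1, and ran from 0.20 to 0.30 without single arrays. In cyclophosphamide rats it passed with the mean of probes (0.77) and the dimmer probes (1.42) and changed sign with total gene signal (-0.20), the lower floor (-0.0047) and the value table (-0.53). Between treatments it changed sign in pachytene spermatocytes with the mean of probes (-0.065), dimmer probes (-0.13) and normexp (-0.093), was -0.17 within slide 1, and ran from -0.020 to 0.055 without single arrays, and in round spermatids it was 0.049 under normexp. The balance of rno-miR-214-3p against rno-miR-199a-3p lost its cell type calls only under normexp (-0.57 and -0.90) among the tested alternatives, and was -0.46 and -1.32 within slide 2. Between treatments it was -0.043 under normexp, -0.52 within slide 2 and 0.77 within slide 3 in round spermatids. In pachytene spermatocytes it ran from 0.27 to 0.40 without single arrays and passed without cyclophosphamide rat 16 (first label year) or saline rat 16.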
